A study of Mus musculus with 20 samples.

Results

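The immature neuron and neurogenesis genes described here are Mki67, Top2a, Eomes, Neurod1, Igfbpl1, Dcx, Sox11, Sox4 and Neurod2, found by their symbols in the deposited gene table. They are 9 of the 48709 genes counted, and 9 of 9 passed the filter on low counts that left 19797 genes for testing. RNA came from the hippocampus of 20 young adult C57BL/6 mice (C57BL/6J in the study's methods), 5 in each of 4 groups. According to the methods it was taken from the right hemisphere. The Ct_F females (17.71 to 18.29 weeks old) and the Ct_M males (18.57 to 19.14 weeks) were born to dams that breathed filtered air. The nPM_F females (18 to 18.29 weeks) and the nPM_M males (18.86 to 19.14 weeks) were born to dams that had inhaled nPM, nano-sized particulate matter collected from city air. Exposures of 5 h took place on 3 days of each week, from gestational day 2 until birth. The concentration is given as 300 per cubic metre of air, in mg in the sample labels and in μg in the study's methods. The methods also state that the brains were perfused with saline and describe injections of EdU, a label of newly made DNA, in 1 place for males and in another for all animals. The ages of the sexes do not overlap, so sex and age, and the injections if only males had them, cannot be told apart. The labels name no litter, and the methods give 5 litters per exposure group, so the 10 mice of an exposure include littermates. Mice of 1 sex and exposure may also be littermates. Each test here treats mice as independent, and p-values measure only the spread between these samples. Ribosomal RNA was removed from total RNA before sequencing, and the counts per sample summed to between 19092067 and 38663408.

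In the adult rodent hippocampus, new granule neurons are made in the dentate gyrus from radial glia-like stem cells. Their progeny divide as intermediate progenitors, leave the cell cycle as neuroblasts, and pass through an immature neuron stage before they join the mature granule cell layer. The 9 genes follow this course. Mki67 encodes Ki-67, a coat protein of mitotic chromosomes, and Top2a encodes the topoisomerase that disentangles replicated DNA, and both are transcribed in dividing cells. Eomes, also called Tbr2, is the T-box transcription factor of intermediate progenitors, and Neurod1 is a basic helix-loop-helix factor needed for neuronal differentiation. Igfbpl1 encodes a secreted relative of the insulin-like growth factor binding proteins, Dcx encodes the microtubule-associated protein doublecortin of migrating neuroblasts, and Sox11 and Sox4 are SoxC transcription factors that switch on neuronal genes. Neurod2, a relative of Neurod1, stays on in mature excitatory neurons.

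In the deposited gene table, on the mm10 build, the 9 genes lie on 8 chromosomes, and only Top2a (ENSMUSG00000020914.17, chr11:98992943-99024189) and Neurod2 (ENSMUSG00000038255.6, chr11:98325415-98329648) share one. Sox11 (ENSMUSG00000063632.6, chr12:27334264-27342574) and Sox4 (ENSMUSG00000076431.4, chr13:28948919-28953713) are exonic over 100% of their span, that is, they have no introns. In the opposite case, exons cover 16.3% of the span of Dcx (ENSMUSG00000031285.14, chrX:143855842-143933311) and 18.6% of that of Igfbpl1 (ENSMUSG00000035551.6, chr4:45809468-45826923). The other positions are chr7:135689784-135716361 for Mki67 (ENSMUSG00000031004.8), chr9:118478212-118486132 for Eomes (ENSMUSG00000032446.14) and chr2:79452521-79456751 for Neurod1 (ENSMUSG00000034701.9). Other genes overlap 5 of the 9 in this table. Neurod1 lies within the span of Cerkl on the same strand, and Cerkl held 2953 counts over the 20 samples against 9697 for Neurod1, or 30.5% as many. On the opposite strand, Gm26735 overlaps Sox4 with 345 counts against 10303, Gm45240 overlaps Mki67 with 49 against 2040, Gm26755 overlaps Neurod1 with 50 counts, and Gm33460 overlaps Eomes with 5 against 1332. The small nucleolar RNA genes Gm26394 and Gm23451 within Top2a held 0 counts. The sources do not say whether counting used the strand, so reads of these overlaps may have been assigned to either gene.

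Mki67 and Top2a are shown with the DNA in front of their starts because this pair had the largest correlation of the 36 pairs among the 9 genes, although it missed the adjusted threshold. Promoters of many genes of dividing cells hold CCAAT boxes, bound by the factor NF-Y, and the cell cycle genes homology region TTTGAA, bound by the DREAM complex. RefSeq promoter sequences of the GRCm38.p6 build matched 8 of the 9 genes, all but Igfbpl1. The window of Mki67 is chr7:135716380-135716629 and that of Top2a is chr11:99024190-99024439, each the 250 bases before a start on the minus strand, written 5′ to 3′ along the gene. Capitals mark CCAAT and TTTGAA read on either strand (ATTGG and TTCAAA on the other), and no marked letter belongs to both motifs.
Mki67: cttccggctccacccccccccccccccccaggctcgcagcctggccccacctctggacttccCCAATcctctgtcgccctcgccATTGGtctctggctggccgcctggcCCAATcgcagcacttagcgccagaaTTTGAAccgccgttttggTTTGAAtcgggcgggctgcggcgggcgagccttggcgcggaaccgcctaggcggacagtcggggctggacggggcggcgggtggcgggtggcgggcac
Top2a: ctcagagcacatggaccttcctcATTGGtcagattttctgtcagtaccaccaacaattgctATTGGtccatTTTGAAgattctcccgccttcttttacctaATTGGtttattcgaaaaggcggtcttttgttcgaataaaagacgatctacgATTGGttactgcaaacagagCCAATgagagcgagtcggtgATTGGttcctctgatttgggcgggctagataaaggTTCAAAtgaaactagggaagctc
The Mki67 window holds 3 CCAAT and 2 TTTGAA matches, and the Top2a window holds 6 and 2. Of 32851 windows of the same length, 33.8% hold at least 1 CCAAT match, 2.79% at least 3 and 0.0578% at least 6. At least 1 TTTGAA match is found in 16.0% of them, at least 2 in 1.81%, and both motifs in 5.55%. Among the other genes, the window of Sox4 holds 4 CCAAT matches, those of Eomes and Neurod2 hold 2 each, that of Sox11 holds 1 match of each motif, and that of Neurod1 holds 0. Dcx has 2 windows, with 1 and 0 CCAAT matches. A match of letters describes the sequence and is not a binding site.

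Several libraries stood apart in lists of marker genes for cells and regions that border the hippocampus. Levels of these lists are given as summed CPM, counts scaled to the size of the library, with library sizes adjusted by the trimmed mean of M-values (TMM) method. Choroid plexus markers, of which Ttr was the most abundant, ranged from 32.5 CPM in Ct_M3 to 8208 CPM in nPM_F1. They were above 1000 CPM in 7 libraries, Ct_M2 (5003), Ct_M4 (7317), Ct_M5 (2953), nPM_F1, nPM_F5 (1769), nPM_M2 (3053) and nPM_M3 (5559), and this set of 7 was defined after the data were seen. Fits without them keep 5 Ct_F, 3 nPM_F, 2 Ct_M and 3 nPM_M libraries. Striatal markers, led by Ppp1r1b, summed to 517 CPM in nPM_F1 and to 128 to 182 CPM in the others. Thalamic markers, led by Slc17a6, reached 207 CPM in nPM_M1 and were 67.5 to 158 CPM elsewhere, while Gbx2 of the same list had a count of 0 in 11 libraries. In the nPM_M group Slc17a6 was at 62.7 ± 49.4 CPM (mean and SD). Prkcd, the next most abundant gene of the list, was at 37.8 ± 9.59 CPM there and at 45.3 ± 28.5 CPM in Ct_F, and did not set nPM_M1 apart. Blood markers, led by the globin gene Hbb-bs, were at 43.0 CPM in Ct_M1, 30.0 in nPM_M1 and 56.9 in nPM_M2, and at 1.25 to 6.57 CPM in the rest. Meningeal markers, led by Dcn, were highest in Ct_M1, at 154 CPM. The markers of the hippocampus itself were present throughout. CA pyramidal cell markers summed to 682 to 1062 CPM and those of mature granule cells to 259 to 550 CPM, the latter lowest in nPM_F3 and highest in nPM_F1.

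Compared per kilobase of gene length (RPKM, here CPM divided by the gene's length in kilobases), the 9 genes spanned the range from a neuronal factor to rare-cell transcripts. Neurod2 was the most abundant, with 17.3 ± 3.37 RPKM (SD, n = 20), followed by Neurod1 with 5.87 ± 1.44. Sox11 (3.54 ± 1.27), Sox4 (3.49 ± 0.603) and Dcx (2.24 ± 0.529) came next. Igfbpl1 (0.887 ± 0.506), Eomes (0.486 ± 0.376), Top2a (0.358 ± 0.139) and Mki67 (0.336 ± 0.0915) were below 1 RPKM. In this order Neurod2 was above Neurod1 in 20 of 20 samples and Dcx above Igfbpl1 in 20 of 20. Sox11 was above Sox4 in 9 of 20, Eomes above Top2a in 12 and Top2a above Mki67 in 11, so these neighbours changed places from mouse to mouse. By level, the stem cell list was led by Id4 (28.7 RPKM) and Hopx (20.6), and the list of intermediate progenitors by Btg2 (5.74) and Gadd45g (5.32). Pcna (16.7) and Ccnd2 (8.66) led the cell cycle list, and Tubb3 (84.1) and Stmn1 (83.3) the immature neuron list. Calb1 (20.9) and Trpc6 (14.5) were the most abundant of the mature granule cell list.

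**Figure D1:**
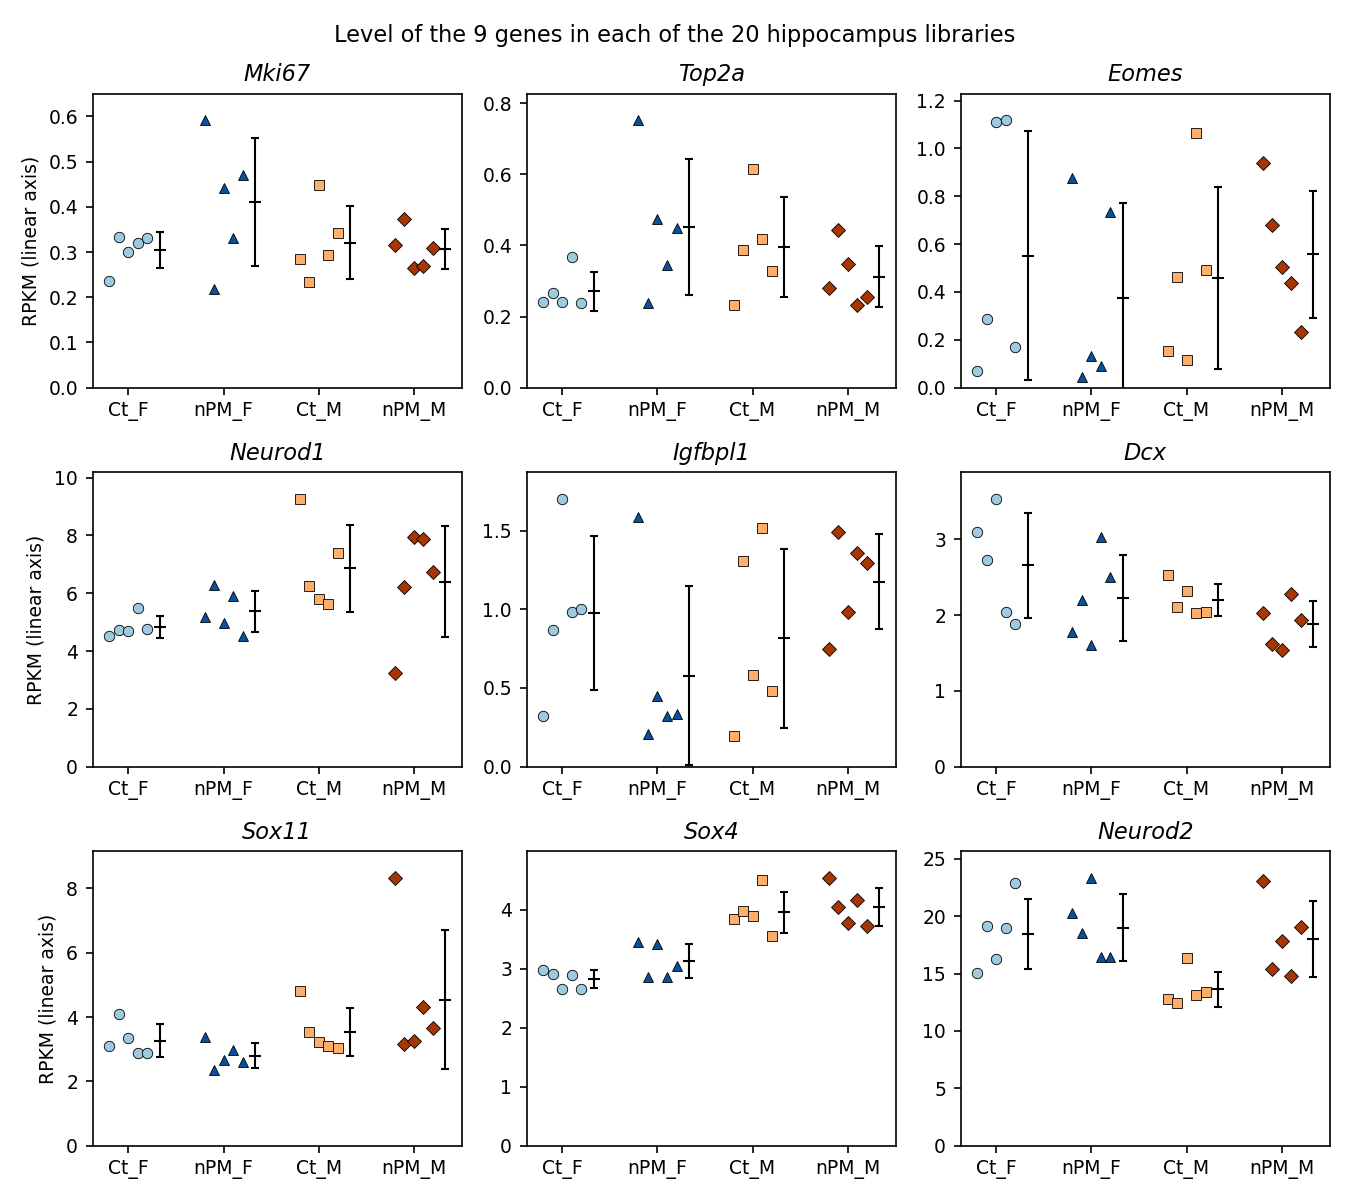
Level of each of the 9 genes in the 20 samples, in RPKM, by group, on axes that start at 0. Each point is 1 mouse, the cross line beside a group is its mean and the bar its SD (n = 5), with the part of a bar below 0 not drawn. The 10 males lie above the 10 females for Sox4, and 1 sample, nPM_M1 at 8.32 RPKM, lies far above the others for Sox11.

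Whether gestational nPM exposure goes with a difference in these genes was asked in both sexes together with sex as a covariate, in males, in females, and as the interaction, which is the effect in males minus that in females. These tests share samples, so their values stand side by side and are not independent. At the study's threshold, a p under 0.005 in limma, 0 of the 9 genes passed in any of the 4 tests. Of the 19797 genes tested, 28 passed in both sexes (0.141%), 41 in males (0.207%), 18 in females (0.0909%) and 43 in the interaction (0.217%). A count of 0 among 9 genes is therefore near the background. No gene at all had a Benjamini-Hochberg adjusted p under 0.05 in these 4 limma fits, where 416, 848, 393 and 751 genes had an unadjusted p under 0.05, while edgeR called 0, 0, 0 and 1 genes and DESeq2 0, 1, 1 and 0. The ranges of exposed and control mice overlapped for 9 of 9 genes in each sex. The share over all genes was not computed, so this count sets the 9 genes apart in no way.

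At an unadjusted p under 0.05, 3 genes came up between exposed and control mice. In both sexes together Neurod2 was higher (0.995% of all genes tested were called higher) and Dcx lower (1.11% lower). Males had Neurod2 higher (2.44% of all genes) and 0 genes of the 9 lower (1.84%). Females had Top2a higher (0.965%) and 0 lower (1.02%). In the interaction Igfbpl1 had a positive value (2.27% of all genes) and Top2a a negative one (1.52%). Each of these genes had an adjusted p of 0.963 or more. In exact permutation tests of the mean log2 CPM, 0 of 9 genes had a p under 0.05 in both sexes together, 1 in males (Neurod2), 0 in females and 2 in the interaction (Igfbpl1 and Top2a). Within 1 sex the smallest p such a test can give is 0.00794.

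**Figure D2:**
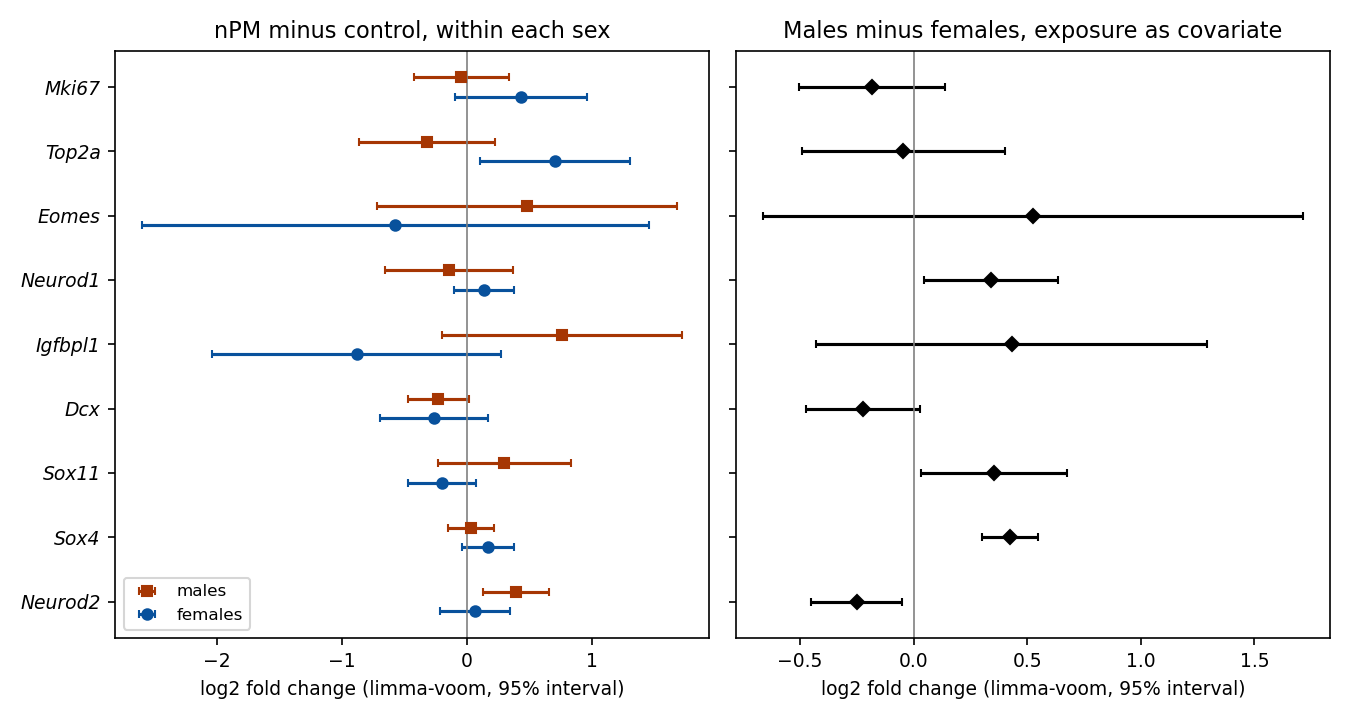
Log2 differences of the 9 genes from limma, with nPM in males and in females (left) and in males against females (right); points are estimates and bars 95% confidence intervals. The interval of Eomes in females runs from -2.60 to 1.45, and on the right that of Sox4 (0.30 to 0.55) is the one farthest from 0 for its width.

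Mki67, the Ki-67 gene, was measured at 2.37, 3.36, 3.03, 3.23 and 3.34 CPM in Ct_F1 to Ct_F5 and at 5.95, 2.19, 4.44, 3.34 and 4.73 CPM in nPM_F1 to nPM_F5. In Ct_M1 to Ct_M5 it was at 2.87, 2.36, 4.51, 2.95 and 3.44 CPM, and in nPM_M1 to nPM_M5 at 3.18, 3.75, 2.67, 2.71 and 3.12 CPM. Of the nPM females, 3 were above the 5 control females and 1 was below them, and the males overlapped throughout. The log2 difference with nPM was 0.44 (SE 0.24) in females, with an exact permutation p of 0.222, and -0.04 (SE 0.18) in males, with an exact p of 0.849. In females it was 0.28 without nPM_F1, the library with striatal and choroid plexus markers, 0.12 without both choroid-rich libraries and 0.63 (limma p 0.0071) without nPM_F2. These levels rest on 46 to 180 counts per library, the highest of them in nPM_F1.

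Top2a, the topoisomerase gene, was at 2.18, 2.41, 2.18, 3.31 and 2.14 CPM in Ct_F1 to Ct_F5 and at 6.78, 2.15, 4.27, 3.12 and 4.04 CPM in nPM_F1 to nPM_F5. The males had 2.09, 3.50, 5.54, 3.76 and 2.96 CPM in Ct_M1 to Ct_M5 and 2.52, 4.01, 3.14, 2.10 and 2.30 CPM in nPM_M1 to nPM_M5. Again 3 of 5 nPM females were above the 5 control females, and nPM_F1 was the highest of the 20. The log2 difference with nPM in females was 0.70 (SE 0.28), a limma p of 0.026 and an exact permutation p of 0.0794. Without nPM_F1 it was 0.48 (limma p 0.064), without both choroid-rich female libraries 0.37 (limma p 0.18), and without nPM_F2, the lowest of its group, 0.90 (limma p 0.0030). In males the difference was -0.32 (SE 0.25), an exact p of 0.310. The interaction was -1.01 (SE 0.39), with a limma p of 0.016, an adjusted p of 0.988 and an exact permutation p of 0.0291. It was -0.80 without nPM_F1, -1.20 (limma p 0.0035) without nPM_F2 and -0.94 (limma p 0.071) without the 7 choroid-rich libraries. With the means of the 4 groups removed, the log2 CPM of Top2a had an r of 0.55 with summed striatal markers over the 20 samples. It was 0.46 with ependyma and 0.42 with choroid plexus markers, and the adjusted p-values of these relations were 0.342, 0.44 and 0.469. In the same order r was 0.68, 0.68 and 0.71 in females and 0.41, 0.24 and 0.18 in males. Top2a had relations of similar size with genes not tied to those tissues. Its r was 0.47 with ribosomal protein genes, 0.44 with cell cycle and 0.43 with microglia markers (adjusted p-values 0.398, 0.342 and 0.469). For these r was 0.31, 0.75 and 0.37 in females and 0.68, 0.09 and 0.77 in males. The part of the neighbouring tissues in the Top2a values was not tested otherwise.

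The cell cycle list differed by less. Of its 20 genes 18 were tested, and in females 17 of 18 had a positive log2 difference with nPM, with a median of 0.14 against 0.00 over all genes tested. Of all 19797 genes tested 10141 were positive in females. None of the 18 reached an unadjusted p under 0.05 in limma in any of the nPM tests. In males 8 of 18 were positive (median -0.05), in both sexes 13 of 18 (median 0.09), and in the interaction 4 of 18 (median -0.22). Over all genes 9810, 9311 and 10398 were positive in males, in both sexes and in the interaction. The summed level of the list was 122 to 163 CPM in Ct_F and 136 to 184 CPM in nPM_F, and its log2 difference of 0.09 had an exact permutation p of 0.452. The highest female library was again nPM_F1. Pcna and Ccnd2, the most abundant genes of the list, also act outside cell division, and Ube2c of the list had a count of 0 in 1 library.

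Eomes, the intermediate progenitor factor, varied most between mice. It was at 0.288, 1.18, 4.62, 4.65 and 0.712 CPM in Ct_F1 to Ct_F5 and at 3.64, 0.191, 0.555, 0.383 and 3.05 CPM in nPM_F1 to nPM_F5. In males it was at 0.634, 1.93, 0.480, 4.42 and 2.04 CPM in Ct_M1 to Ct_M5 and at 3.90, 2.82, 2.09, 1.82 and 0.968 CPM in nPM_M1 to nPM_M5. High and low mice occurred in each group, and the nPM_M group had the narrowest range. Counts ran from 4 in nPM_F2 to 169 in Ct_M4, a 42.3-fold range. The coefficient of variation within groups was 47.5% to 105%, where counting alone would give 11.1% to 14.7%. At this spread the log2 difference with nPM, 0.06 in both sexes (SE 0.56, 95% interval -1.10 to 1.23), is compatible with more than a doubling in either direction. The exact permutation test, on a mean log2 CPM difference of -0.0484, gave a p of 0.941. By sex, the log2 difference from limma was -0.57 in females (exact p 0.556) and 0.48 in males (exact p 0.429). Leaving out 1 library moved it from -1.17 (without Ct_F1) to -0.0852 (without nPM_F2) in females and from 0.125 (without Ct_M3) to 0.94 (without Ct_M4) in males. Without the choroid-rich libraries Eomes was at -1.98 (limma p 0.12) in females and 1.78 (limma p 0.055) in males. The interaction was 1.06 (SE 1.15, limma p 0.37, exact p 0.333), 0.57 to 1.65 with 1 library left out, and 3.76 (limma p 0.042) without the choroid-rich libraries, so its size depends on which mice are kept.

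The level of Eomes varied with those of ependyma and stem cell markers. With the means of the 4 groups removed, its log2 CPM correlated with the summed ependyma markers over the 20 samples (r = 0.73, permutation p of 0.00058, rho = 0.80 with p of 0.00022) and with the summed stem cell markers (r = 0.78, permutation p of 0.0014, rho = 0.80 with p of 0.0011). These are 2 of 6 relations that had an adjusted p under 0.05 (0.0377 and 0.0381) among 162 tested, 9 genes against 16 marker lists and 2 gene classes, a family chosen after the data were seen. Without the 2 samples farthest from the median r was 0.69 and 0.80, and it was 0.76 and 0.72 in females and 0.76 and 0.93 in males. The adjusted p of both was over 0.05 without those 2 samples, as it was for all 6 relations, and in several fits that left out 1 library. The ependyma list has 6 genes, led by Fam183b (5.56 RPKM) and Ccdc153, and its sum ranged from 8.98 CPM in nPM_F4 to 62.3 in Ct_M2. The stem cell list is led by Id4 and Hopx, and which cells of the undivided tissue gave its RNA was not tested. Choroid plexus markers had an r of 0.63 with Eomes (permutation p of 0.0061, rho = 0.62, adjusted p of 0.105), the Dlx list described below 0.55 (adjusted p 0.189), thalamus markers 0.46 (0.189) and neocortex markers -0.51 (0.289). The genes most like Eomes over the 20 samples, of 15960 with a mean of at least 1 CPM, were Postn (r = 0.95), Corin (0.91) and Ebf2 (0.86). Postn encodes the matrix protein periostin, Corin a membrane protease and Ebf2 a transcription factor. The list of other intermediate progenitor genes was steadier, at 24.9 to 43.7 CPM, with 0 of 7 genes at an unadjusted p under 0.05 in any nPM test in limma (medians 0.00 in both sexes, -0.12 in males, 0.19 in females and -0.08 in the interaction). Eomes had an r of only 0.30 with this list (permutation p of 0.216, adjusted p of 0.539), 0.20 in females and 0.48 in males. That is below its r with the ependyma, stem cell and choroid plexus lists.

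Neurod1 ranged from 12.3 to 15.02 CPM in Ct_F, 12.3 to 17.1 in nPM_F, 15.3 to 25.3 in Ct_M and 8.85 to 21.7 in nPM_M. The lowest sample was nPM_M1, the library with the highest thalamic sum, led by Slc17a6, and the highest was Ct_M1, a library with blood and meningeal markers. With nPM, the log2 difference was -0.14 (SE 0.23, exact permutation p 0.690) in males and 0.14 (SE 0.11, exact p 0.190) in females. Among control mice the 5 males were above the 5 females. Over all mice the males were higher by 0.34 on the log2 scale (SE 0.14), with an adjusted p of 0.0608 in limma, which misses the threshold, and an exact p of 0.0303. It passed in edgeR (0.38, adjusted p 0.0236), in DESeq2 (0.38, adjusted p 0.0138) and, in limma, only without nPM_M1 (0.46, adjusted p 0.000527), so the call depends on the tool and on that library. Within groups Neurod1 was low where thalamic markers were high (r = -0.74, permutation p of 0.0040, adjusted p of 0.081), which missed the threshold. It was -0.90 in males, -0.19 in females and -0.55 without the 2 samples farthest from the median. The genes most like Neurod1 were Itga4 (r = 0.87), an integrin gene, Mertk (0.84), a receptor tyrosine kinase gene, and C1ql3 (0.83), which encodes a secreted synaptic protein. Itga4 lies beside Cerkl and Neurod1 on chromosome 2.

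Igfbpl1 was at 1.06, 2.83, 5.52, 3.20 and 3.25 CPM in Ct_F1 to Ct_F5 and at 5.16, 0.668, 1.46, 1.04 and 1.08 CPM in nPM_F1 to nPM_F5. In Ct_M1 to Ct_M5 it was at 0.634, 4.25, 1.88, 4.94 and 1.56 CPM, and in nPM_M1 to nPM_M5 at 2.44, 4.84, 3.20, 4.42 and 4.21 CPM. The nPM females other than nPM_F1 were low, and the nPM males lay in the upper part of the range of the control males. The log2 difference with nPM was -0.88 (SE 0.53) in females, with an exact permutation p of 0.159, and 0.76 (SE 0.44) in males, with an exact p of 0.190. Leaving out 1 library moved it from -1.39 (limma p 0.014, without nPM_F1) to -0.63 (limma p 0.26, without Ct_F3) in females and from 0.37 (limma p 0.31, without Ct_M1) to 1.11 (limma p 0.022, without Ct_M4) in males. Their difference, the interaction, was 1.65 (SE 0.75), with a limma p of 0.039, an adjusted p of 0.988 and an exact p of 0.0429. It was 1.25 (p 0.11) in edgeR and 1.27 (p 0.080) in DESeq2. Without the 7 choroid-rich libraries it was 3.08 with a limma p of 0.0041, past the study's threshold, with -1.41 in females (limma p 0.032) and 1.67 in males (limma p 0.016). With 1 library left out it ranged from 1.26 without Ct_M1 (limma p 0.080) to 2.15 without nPM_F1 (limma p 0.0092), and the limma p was under 0.05 in 7 of these 20 fits. Counts ran from 14 to 189 per library.

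Igfbpl1 varied with several marker lists, of which 1 passed the adjusted threshold. The list of Dlx1, Dlx2, Dlx5, Dlx6, Dlx6os1, Sp8, Sp9 and Tshz1, genes of ventricular zone neuroblasts and interneurons, correlated with it at r = 0.75 over the 20 samples (permutation p of 0.00048, rho = 0.86 with p of 8e-05, adjusted p of 0.0377). Without the 2 samples farthest from the median r was 0.75, and it was 0.86 in females and 0.58 in males. Without those samples it too lost the adjusted p. Relations with an unadjusted p under 0.05 that missed the threshold had an r of 0.70 with ependyma (adjusted p 0.105), 0.62 with striatum (0.105), 0.62 with stem cell (0.183), 0.61 with choroid plexus (0.182), 0.56 with cell cycle (0.181) and -0.615 with immature neuron markers (0.105). The Dlx list summed to 59.9 CPM in Ct_F1 up to 103 CPM in Ct_F3, and its most abundant gene was Dlx6os1 (7.77 RPKM). In the nPM tests 0 of its 8 tested genes had an unadjusted p under 0.05 in limma, with medians of -0.27 in females and 0.03 in males. The genes most like Igfbpl1 were Col6a3 (r = 0.94), a collagen gene, Ano1 (0.92), a chloride channel gene, and Glp1r (0.92), the receptor gene of glucagon-like peptide 1. With Eomes its r was 0.66 (permutation p of 0.0066, rho = 0.56, adjusted p of 0.119).

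**Figure D3:**
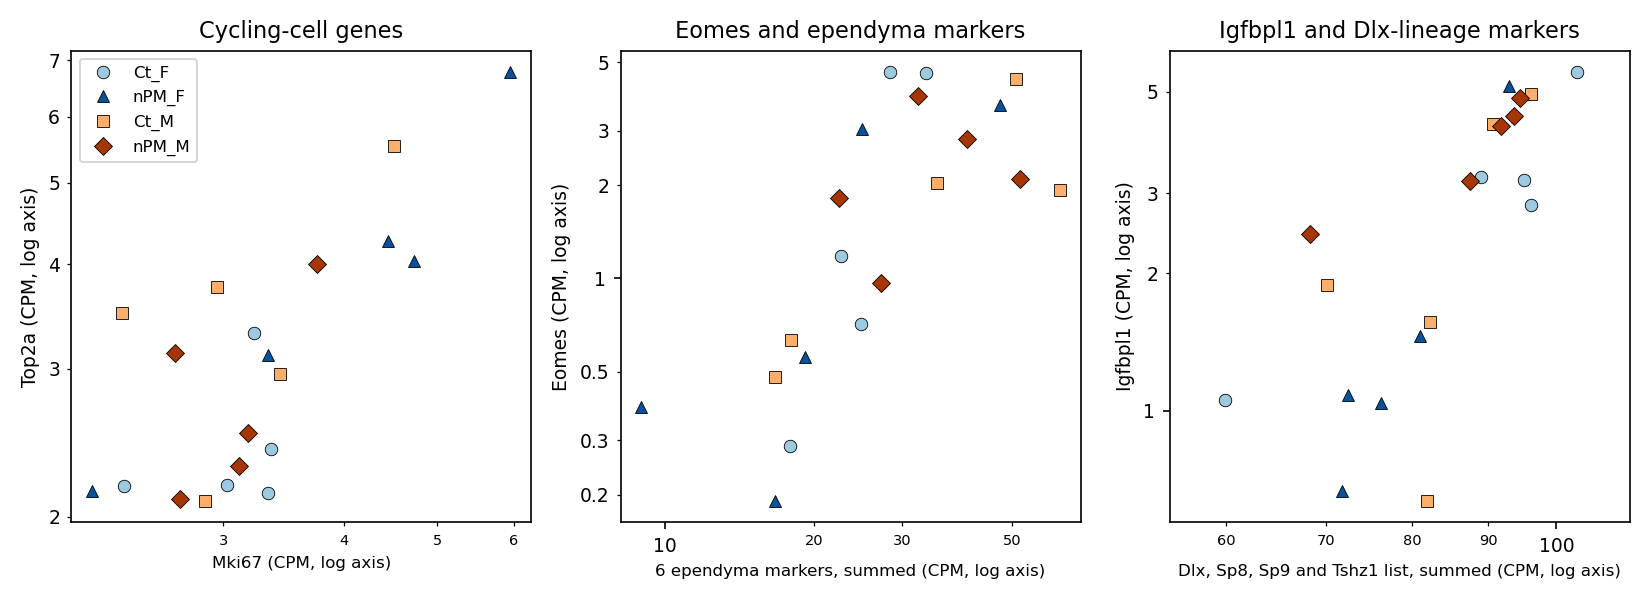
Top2a against Mki67, Eomes against the summed ependyma markers, and Igfbpl1 against the summed Dlx, Sp8, Sp9 and Tshz1 list, in CPM on log axes. Each point is 1 of the 20 mice, with colour and shape for the group. With group means removed, r was 0.74, 0.73 and 0.75, and nPM_F1 is the highest point of both Mki67 and Top2a.

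Dcx, the doublecortin gene, was at 39.1, 34.5, 44.6, 25.9 and 23.8 CPM in Ct_F1 to Ct_F5 and at 22.5, 27.8, 20.4, 38.4 and 31.8 CPM in nPM_F1 to nPM_F5. The males were closer together, with 31.9, 26.6, 29.3, 25.7 and 25.8 CPM in Ct_M1 to Ct_M5 and 25.7, 20.4, 19.5, 28.8 and 24.5 CPM in nPM_M1 to nPM_M5. Of the nPM males 4 were below the 5 control males, and of the nPM females 2 were below the 5 control females. The log2 difference with nPM over both sexes was -0.26 (SE 0.12, 95% interval -0.50 to -0.01), a limma p of 0.045 and an exact permutation p of 0.0777. The limma p stayed under 0.05 in 10 of 20 fits that left out 1 library. Without the 7 choroid-rich libraries the difference was nearly as large, -0.24, on 13 libraries (limma p 0.16). The difference was -0.23 in males (exact p 0.0873) and -0.26 in females (exact p 0.310), and the interaction was 0.05 (exact p 0.967). As RNA was taken from undivided tissue of the right hippocampus, fewer cells of a type and less RNA per cell cannot be told apart, for Dcx as for the other genes.

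Other genes listed for immature neurons gave a similar picture of small differences. Of 15 genes, 4 had a positive log2 difference with nPM in both sexes (median -0.11), 6 in males (median -0.04), 3 in females (median -0.10) and 9 in the interaction (median 0.00). In the same order, 9311, 9810, 10141 and 10398 of all 19797 genes tested were positive. At an unadjusted p under 0.05 in limma, Stmn2 (-0.19, SE 0.077) and Tubb3 (-0.16, SE 0.065), which encode a microtubule-destabilizing protein and the neuronal beta-tubulin, were lower in nPM males and 1 gene was higher. The interaction had Nhlh2 (0.73, SE 0.33), and the other nPM tests had 0 of the 15. None had an adjusted p under 0.05. The summed list was 966 to 1257 CPM in Ct_F, 933 to 1131 in nPM_F, 1175 to 1583 in Ct_M and 1078 to 1341 in nPM_M, and its log2 difference with nPM over both sexes of -0.11 had an exact permutation p of 0.1001. The most abundant of its genes, Tubb3 and Stmn1, were at 84.1 and 83.3 RPKM, against 2.24 for Dcx. With Dcx the list had an r of 0.34 (permutation p of 0.151, adjusted p of 0.469), 0.12 in females and 0.78 in males. Whether its RNA came from immature or mature neurons was not tested.

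Between mice of a group, Dcx was high where several marker lists were low, and 2 of these relations, both with glial lists, passed the adjusted threshold. Its r was -0.76 with the microglia markers (permutation p of 0.00076, rho = -0.72, adjusted p of 0.0377) and -0.69 with those of oligodendrocyte precursors (permutation p of 0.0012, rho = -0.65, adjusted p of 0.0381). Without the 2 samples farthest from the median these were -0.67 and -0.58, with -0.78 and -0.75 in females and -0.68 and -0.53 in males, and neither kept an adjusted p under 0.05 without those 2 samples. The cell cycle list had as large an r as the precursor list, -0.69 (permutation p of 0.0032, rho = -0.70), with an adjusted p of 0.0745 that missed the threshold. So did ependyma (-0.50, adjusted p 0.189), choroid plexus (-0.48, 0.189) and, in the positive direction, neocortex markers (0.54, 0.289), each at an unadjusted p under 0.05. The microglia list, led by C1qa (25.6 RPKM), summed to 125 CPM in nPM_F4 up to 223 CPM in nPM_F3, which are the highest and the lowest Dcx levels of the nPM females. The precursor list, led by Pdgfra (8.44 RPKM), ranged from 146 CPM, again in nPM_F4, to 194 CPM in Ct_M5. That female library, nPM_F4, also had the lowest total of counts (19092067) and the lowest sums of stem cell, ependyma and meningeal markers. Without it 3 of the 6 relations with an adjusted p under 0.05 kept it. Ctps2 (r = 0.90), a CTP synthase gene, Gm37478 (0.87), an unspliced gene model, and Dnm3 (0.86), a dynamin gene, were most like Dcx.

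Sox11 ranged from 23.9 to 34.1 CPM in Ct_F, 19.7 to 28.2 in nPM_F, 25.1 to 39.9 in Ct_M and 26.2 to 69.1 in nPM_M. The highest level, 69.1 CPM on 2607 counts, was that of nPM_M1, and the next was 39.9 CPM in Ct_M1. The log2 difference with nPM in males was 0.30 (SE 0.24, exact permutation p 0.405) and 0.04 (limma p 0.80) without nPM_M1. In females it was -0.20 (SE 0.12, exact p 0.143), and 3 of 5 nPM females were below the 5 control females. Males were higher than females by 0.35 (SE 0.15, exact p 0.0243), with an adjusted p of 0.0742 in limma, and by 0.22 (adjusted p 0.0777) without nPM_M1. The call depends on the fit, with an adjusted p under 0.05 in edgeR (0.0498) and DESeq2 (0.0318), for example, and in limma without Ct_F2 (0.0443) or without the 7 choroid-rich libraries (0.0457, log2 difference 0.61). With group means removed, Sox11 had relations with marker lists at a permutation p under 0.05 that missed the adjusted threshold. Its r was -0.40 with microglia (adjusted p 0.116) and -0.43 with CA pyramidal cell markers (0.189). It was -0.375 with oligodendrocyte precursor (0.23) and 0.49 with immature neuron markers (0.276). Cd44 (r = 0.85), a hyaluronan receptor gene, Srgap1 (0.82), a gene of the Slit-Robo pathway, and Megf11 (0.82) were most like Sox11.

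Sox4 gave the clearest difference of the 9 genes, and it was between the sexes. The females had 14.3, 14.0, 12.8, 13.9 and 12.7 CPM in Ct_F1 to Ct_F5 and 16.6, 13.7, 16.4, 13.7 and 14.6 CPM in nPM_F1 to nPM_F5. The males had 18.4, 19.1, 18.7, 21.6 and 17.1 CPM in Ct_M1 to Ct_M5 and 21.8, 19.5, 18.1, 19.98 and 17.9 CPM in nPM_M1 to nPM_M5. The 10 males were thus above the 10 females, the lowest male (17.1) next to the highest female (16.6). Males were higher by 0.42 on the log2 scale (SE 0.059, 95% interval 0.30 to 0.55), or 1.34-fold, with an adjusted p of 2.2e-05 in limma. The exact permutation p of 3.1e-05 is the smallest this design can give. Leaving out each library in turn gave 0.40 to 0.45, and leaving out the 7 choroid-rich libraries 0.44. With nPM the log2 difference was 0.17 in females (SE 0.095, exact p 0.0873) and 0.03 in males (SE 0.084, exact p 0.667).

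Neurod2, the factor of mature excitatory neurons, was at 47.2, 60.1, 51.1, 59.6 and 71.8 CPM in Ct_F1 to Ct_F5 and at 63.8, 58.2, 73.2, 51.5 and 51.5 CPM in nPM_F1 to nPM_F5. In males it was at 40.3, 39.2, 51.3, 41.3 and 42.1 CPM in Ct_M1 to Ct_M5 and at 72.6, 48.4, 56.1, 46.4 and 59.8 CPM in nPM_M1 to nPM_M5. The 5 nPM males were above the median of the control males and 3 of them above all 5, while the female groups overlapped. With nPM the log2 difference in males was 0.39 (SE 0.12), or 1.31-fold, with a limma p of 0.0068, just over the study's threshold, and an exact permutation p of 0.0238. It passed the threshold in DESeq2 (0.40, p 0.0022) and without Ct_M3 (0.46, limma p 0.00305), nPM_M2 (0.44, limma p 0.0050) or nPM_M4 (0.46, limma p 0.0024), and was 0.29 (limma p 0.015) without nPM_M1. Without the choroid-rich males, with 2 control and 3 nPM males left, it was 0.36 with a limma p of 0.12. In females it was 0.07 (SE 0.13, exact p 0.754). The interaction of 0.34 (SE 0.18) had a limma p of 0.079 and an exact p of 0.127, so the effects in the 2 sexes were not shown to differ. Over both sexes it was 0.22 (SE 0.097), a limma p of 0.031 and an exact p of 0.0521, with a limma p under 0.05 in 12 of 20 fits that left out 1 library.

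Other genes of mature neurons had few differences with nPM. Of 8 mature granule cell genes, 6 had a positive log2 difference with nPM in males (median 0.21), 5 in females (median 0.05), 6 in both sexes (median 0.11) and 6 in the interaction (median 0.20). In the same order, 9810, 10141, 9311 and 10398 of all 19797 genes tested were positive. C1ql2 in both sexes (0.28, SE 0.13) was the one with an unadjusted p under 0.05 in limma. Of 8 CA pyramidal cell genes, Fibcd1 in males (0.29, SE 0.12) had one, with medians of 0.07, 0.16, 0.06 and 0.15 in both sexes, males, females and the interaction. Rnf112 (r = 0.82), Gpc1 (0.79), a glypican gene, and Col11a1 (0.78), a collagen gene, were most like Neurod2 over the 20 samples.

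The sex comparison asks whether males and females differ with exposure as a covariate, and it was wide. At an adjusted p under 0.05 in limma, 3725 genes (18.8%) were higher and 4280 (21.6%) lower in males, and 6147 genes (31.1%) had a p under 0.005. Of the 9 genes Sox4 was higher and Neurod2 lower at that adjusted threshold, and 1 of 9 (Sox4) had a p under 0.005, shares below those of all genes. Neurod2 was at -0.25 (SE 0.097), an adjusted p of 0.0435 and an exact permutation p of 0.0269, with 5 of 10 males below the 10 females and 2 above the median of the females, and it is a call at the edge of the threshold. The adjusted p stayed under 0.05 in 8 of 20 fits that left out 1 library. It was 0.0504 to 0.0866 without Ct_F2, Ct_F3, Ct_F4, Ct_F5, Ct_M1, Ct_M2, Ct_M4, Ct_M5, nPM_F1, nPM_F3, nPM_M2 or nPM_M4, and it was also lost with no filter (0.0872) and without the 7 choroid-rich libraries (0.350, log2 difference -0.18). The first principal component of the 19797 genes, with 30.3% of the variance, had the 10 females at 2.53 or below and the 10 males at 8.82 or above. By list, stem cell genes had 7 higher and 1 lower of 13 at an adjusted p under 0.05 (median 0.29), among them Sox2 (0.44, SE 0.067) and Lpar1 (0.51, SE 0.10). Id4 and Hopx, the most abundant genes of this list, were at 28.7 and 20.6 RPKM. Whether its RNA came from stem cells or from other cells of the undivided tissue was not tested. Immature neuron genes had 8 higher and 1 lower of 15 (median 0.29), among them Marcksl1 (0.56, SE 0.12) and, in the other direction, Dpysl5 (-0.48, SE 0.095). Cell cycle genes had Pcna higher (0.38, SE 0.067) and 0 lower of 18 (median 0.05), intermediate progenitor genes 0 of 7 (median 0.23; 3 higher at an unadjusted p under 0.05), mature granule cell genes Calb1 higher (0.45, SE 0.14) of 8, and CA pyramidal cell genes Nrn1 higher (0.22, SE 0.080) and Grik4 lower (-0.33, SE 0.12) of 8.

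Whole classes of genes differed by sex as well, and Sox4 varied with one of them. Gencode's TEC genes are mostly unspliced models that await experimental evidence. Of 1325 tested, 93.1% had a value below 0, with a median of -0.88 in males against females and with 996 lower and 14 higher at an adjusted p under 0.05. Sense intronic genes, which lie within introns of other genes, had a median of -1.04 (156 of 186 lower), and of 90 cytosolic ribosomal protein genes 90 were above 0 (81 higher at that threshold, median 0.41). The protein-coding class as a whole had a median of 0.07, and of all 19797 genes tested 10341 were above 0 and 9456 below. These classes were chosen after the data were seen. The sources do not say whether counting used the strand, so reads of overlapping genes may be among the counts of TEC genes. Within groups, the log2 CPM of Sox4 was low where the median level of TEC genes was high, with r = -0.71 over the 20 samples (permutation p of 0.00093, rho = -0.68 with p of 0.0021, adjusted p of 0.0377), -0.77 in females and -0.66 in males. Without the 2 samples farthest from the median r was -0.62 and the adjusted p was over 0.05. Relations of Sox4 with thalamus markers (0.51, adjusted p 0.189; 0.83 in males and 0.03 in females) and ribosomal protein genes (0.51, 0.276) missed the threshold. Dcx, drawn beside Sox4 for comparison, had an r of 0.40 with these genes (permutation p of 0.126, rho = 0.36, adjusted p of 0.452). The part of these transcripts in the sex difference of Sox4 was not tested, and what sets their level cannot be told from age, sex or injection. TEC genes had a median log2 difference with nPM of 0.22 in males and -0.15 in females, with 0 of 1325 at an adjusted p under 0.05 in limma. The genes most like Sox4 were Eif3d (r = 0.79), a translation initiation factor gene, Glrx5 (0.79), a mitochondrial glutaredoxin gene, and Tmem177 (0.79).

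**Figure D4:**
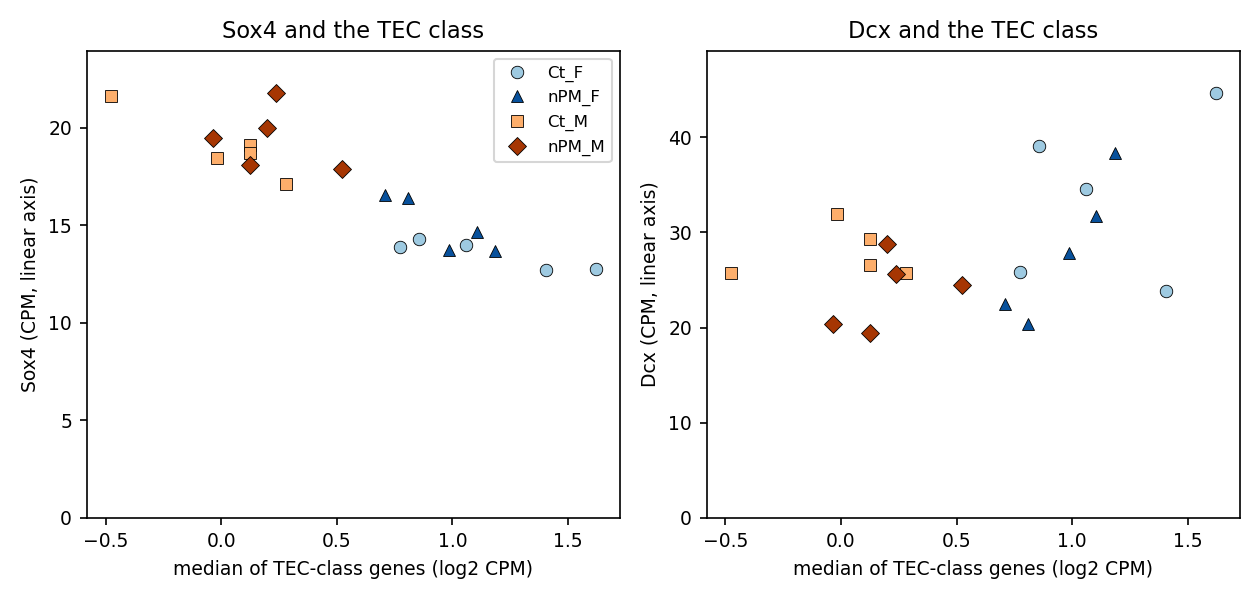
Sox4 (left) and Dcx (right), in CPM, in the 20 mice against the median log2 CPM of the 1325 TEC genes, by group. The females lie at medians of 0.71 to 1.62 and the males at -0.48 to 0.52, and the males have the higher Sox4 level, while Dcx overlaps between the sexes.

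Markers of other cells and regions, whose sums by library are given above for those that stand apart, had few genes past any threshold in the nPM tests. At an unadjusted p under 0.05 in limma, males had the striatal genes Pde10a (0.21, SE 0.067) and Adora2a (0.88, SE 0.32) higher, 2 of 8, and the neocortical gene Cux2 (-0.49, SE 0.20) lower, 1 of 7. Females had the meningeal gene Lum (1.001, SE 0.44) higher, and both sexes together the stem cell gene Nes (0.31, SE 0.14). In the interaction Lum (-1.45, SE 0.64) and the microglial gene P2ry12 (-0.30, SE 0.13) were negative. The choroid plexus list had 0 of 7 in these tests, with medians of 0.84 in females and -0.34 in males. Ependyma (0 of 6), thalamus (0 of 6), oligodendrocyte precursors (0 of 7) and blood (0 of 3) likewise had none, and blood had a median of 0.70 in males. None of these genes had an adjusted p under 0.05. The medians of stem cell genes were 0.06, 0.03, 0.14 and -0.10 in both sexes, males, females and the interaction. In the neocortex list 0 of 7 genes were above 0 in both sexes together (median -0.24), and in the microglia list 5 of 5 (median 0.07). Of all 19797 genes tested 9311 were above 0 in both sexes together. Striatal genes had a median of 0.37 in females, where nPM_F1 is 1 of 5 exposed mice, and 0.03 in males, and meningeal genes had 0.52 and -0.35. Between the sexes, at an adjusted p under 0.05, P2ry12 (0.50, SE 0.073) and Cx3cr1 (0.27, SE 0.098) of 5 microglial genes and Enpp6 (0.41, SE 0.11) of 7 precursor genes were higher in males. So was Tshz1 (0.20, SE 0.077) of 8 in the Dlx list, while Pde10a (-0.36, SE 0.13) of 8 striatal genes was lower. Choroid plexus, ependyma, meninges, blood, thalamus and neocortex had 0 genes at that threshold, with medians of 1.24, 0.48, 0.32, 1.63, -0.01 and -0.09.

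Whether the 9 genes vary together from mouse to mouse was asked with the group means removed. Of 36 pairs 19 had a positive and 17 a negative r, with a median of 0.09, and 0 had an adjusted p under 0.05, with 5 at an unadjusted permutation p under 0.05. The cycling genes Mki67 and Top2a had the largest r, 0.74 (permutation p of 0.0032, rho = 0.63 with p of 0.0136, adjusted p of 0.115). It was 0.88 in females and 0.57 in males, and 0.55 (permutation p of 0.053) without nPM_F1 and nPM_F2, so the relation rests in part on these samples. Igfbpl1 and Eomes followed at 0.66 (0.76 in females and 0.50 in males), and 0.56 (permutation p of 0.043) without 2 samples. Igfbpl1 and Top2a had 0.59 (permutation p of 0.022, rho = 0.49, adjusted p of 0.200), 0.70 in females and 0.47 in males, and 0.20 without Ct_M1 and nPM_F1. In the negative direction Dcx and Neurod2 had -0.55 (permutation p of 0.030, rho = -0.56, adjusted p of 0.216). Their r was -0.90 in females (permutation p of 0.0024) and 0.10 in males (permutation p of 0.81), and the difference between the sexes was not tested. Sox4 and Neurod1 had -0.56 (permutation p of 0.018, rho = -0.56, adjusted p of 0.200), with -0.42 in females and -0.67 in males. Without 2 samples these 2 pairs were at -0.32 (without the females Ct_F5 and nPM_F3) and -0.29 (without the males Ct_M4 and nPM_M1). The gene Kntc1 (r = 0.74), of the mitotic checkpoint, was among those most like Mki67, after the pseudogene Dynlt1-ps1 (0.78) and before Top2a itself. Iah1 (0.87), Mpp1 (0.82) and Msrb1 (0.80) were most like Top2a. With the summed cell cycle list Mki67 had an r of 0.19 (permutation p of 0.463, adjusted p of 0.75). It was 0.69 in females and -0.61 in males. Top2a had 0.44 with that list (permutation p of 0.068, adjusted p of 0.342), 0.75 in females and 0.09 in males. The pair thus varied together more closely than either gene did with that list. The 6 relations with marker lists and classes given with Eomes, Igfbpl1, Dcx and Sox4 kept their sign without any 1 library, but none kept an adjusted p under 0.05 in each of these fits. Of these 6, 0 kept it without Ct_F1, Ct_F3, Ct_M4, Ct_M5, nPM_F1, nPM_F3 or nPM_M5, 1 without Ct_M1, 2 without Ct_M3 and 3 without nPM_F4 or nPM_M2. In the other fits 5 or 6 kept it, and 0 did without the 2 farthest samples of each relation.

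**Figure D5:**
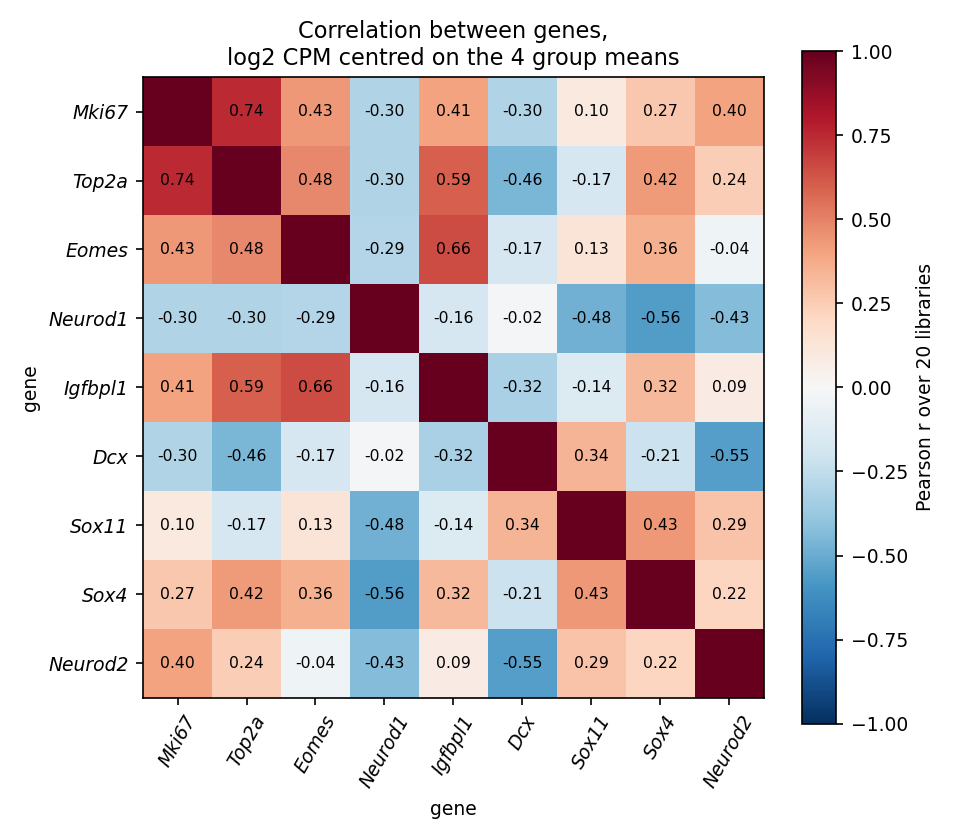
Pearson r of the 36 pairs of the 9 genes over the 20 mice, on log2 CPM with the group means removed. Values run from -0.56 (Sox4 and Neurod1) to 0.74 (Mki67 and Top2a), and 0 pairs have an adjusted p under 0.05.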

How the data were processed

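The authors deposited whole-number counts per gene from featureCounts (1.5.0-p3), a table of authors' RPKM values and gene lengths in bases for 48709 genes and 20 samples. The counts were tested, the lengths gave RPKM from scaled CPM, and the authors' RPKM served as a check of levels only. Counts per sample summed to between 19092067 and 38663408. The filterByExpr function (min.count 10, min.total.count 15) kept 19797 genes. Library sizes were scaled by TMM (edgeR 4.0.16) and tests were made with limma 3.58.1 and voom in R 4.3.3, with the study's threshold of p under 0.005 beside a Benjamini-Hochberg adjusted p under 0.05. Interaction means the nPM effect in males minus that in females, and the sex comparison means males minus females with exposure as a covariate.

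Exact permutation tests used all 252 groupings within a sex and 63504 over both sexes. For the interaction, exposure was regrouped within each sex, which assumes no nPM effect in either sex. Its exact p is therefore not a test of equal effects alone. Correlations used log2 CPM less the means of the 4 groups, 100000 permutations within groups, and Benjamini-Hochberg adjustment over 36 pairs and over 162 relations with lists. Python 3.11.15, numpy 2.4.6, scipy 1.17.1 and pandas 2.3.3 were used for these, and matplotlib 3.10.9 for figures. Alternatives were edgeR quasi-likelihood, DESeq2 1.42.0, RLE scaling, no filter, replicate number as a block, age as a covariate, and each library left out. Promoter windows are RefSeq sequences on GRCm38.p6, cut to 250 bases before the start.

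The 9 genes and the 16 marker lists were chosen with earlier results of these data known. Genes of a list are named by the smallest p in a comparison, at most 2 of those with p under 0.05, and by the highest mean RPKM. The relations with lists, the TEC, sense intronic and ribosomal protein classes and the fits without 7 choroid-rich libraries (over 1000 CPM of choroid plexus markers, 13 kept) were chosen after seeing the data.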

Additional observations from a re-analysis of the deposited data

Results flagged for a closer look

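A sample was singled out where it stood apart from the other 4 of its group, by the gap to its nearest neighbour as a share of the range in log2 CPM (Dixon's ratio, value to pass 0.71). Chance singles out about 1 in 20 groups, and 4 of 36 groups were. Neurod1 in Ct_F4 (log2 CPM 3.91, ratio 0.722) lies above the other 4 control females. Neurod1 in nPM_M1 (3.15, ratio 0.726) lies below the other exposed males, and this is the library with the highest thalamic sum, led by Slc17a6. Neurod2 in Ct_M3 (5.68, ratio 0.732) and Top2a in Ct_F4 (1.73, ratio 0.729) lie above the rest of their groups.

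A pair of genes was singled out by an unadjusted limma p under 0.05 for the interaction, and in both the effects in males and females have opposite signs. These are Igfbpl1, with an interaction of 1.65, and Top2a, with -1.01, and each has an adjusted p of 0.988.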

How the results depend on the processing

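Limits are 5 mice per group, litters not known by mouse, ages that do not overlap between the sexes, and libraries with high markers of neighbouring regions. Against a p of 0.005 for genes and an adjusted p of 0.05 for correlations, 1046 of 1173 values of 51 results kept their side and direction, 66 were weaker (all of them among the 6 relations with lists), 10 stronger and 51 reversed. Differences given at an unadjusted p under 0.05 were less steady. With 1 library left out they stayed under it in 10 of 20 fits for Dcx and 12 of 20 for Neurod2 in both sexes, 10 of 10 for Neurod2 in males, 6 of 10 for Top2a in females, and 20 of 20 for Top2a and 7 of 20 for Igfbpl1 in the interaction. Genes with a limma p under 0.005 numbered 28 in both sexes (43 in DESeq2, 71 with no filter, 14 without the choroid-rich libraries), 41 in males (113 in DESeq2, 130 with no filter) and 18 in females (55, 87 and 29). The interaction had 43 (66 in edgeR, 89 in DESeq2, 149 with no filter, 135 without the choroid-rich libraries), and sex had 6147 (2940 without them). Leaving out 1 library gave 17 to 47 in both sexes, 23 to 78 in males, 10 to 48 in females, 24 to 77 in the interaction and 5485 to 6334 for sex. Of the 9 genes, 2 had an unadjusted p under 0.05 in both sexes (1 in edgeR, 0 with the replicate block, 1 with age, 0 without the choroid-rich libraries). The interaction had 2 (1 in edgeR and 1 in DESeq2) and sex had 4 (2 without the choroid-rich libraries). Leaving out 1 library gave 0 to 2 in both sexes, 1 to 2 in males, 0 to 2 in females, 1 to 3 in the interaction and 2 to 5 for sex.

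The sign turned for these values, and the cause was not tested. In both sexes Igfbpl1 (0.07) was -0.0918 in edgeR, -0.102 in DESeq2 and -0.00297 without the choroid-rich libraries. Eomes (0.06) was -0.121, -0.127 and -0.0849 in these, and -0.0602 with the replicate block. Neurod1 (-0.03) was 0.0227 in edgeR, 0.0213 in DESeq2 and 0.00451 with the block. The mean log2 CPM differences of the exact tests in both sexes were -0.073 for Igfbpl1, -0.0484 for Eomes and 0.000863 for Neurod1. By sex that of Top2a was 0.01002. Without the choroid-rich libraries Mki67 (0.185) was -0.0474 and Top2a (0.155) -0.0262 in both sexes, and by sex Mki67 (-0.186) was 0.0584 and Top2a (-0.0460) 0.00826. With 1 library left out, the ranges that cross 0 were -0.0869 to 0.113 for Sox11, -0.14 to 0.25 for Igfbpl1, -0.18 to 0.29 for Eomes and -0.0707 to 0.102 for Neurod1 in both sexes. In males they were -0.0197 to 0.0821 for Sox4, -0.253 to 0.0855 for Neurod1 (-0.144) and -0.148 to 0.0706 for Mki67. Neurod2 in females had -0.0135 to 0.146, Dcx in the interaction -0.0656 to 0.154, and Top2a by sex -0.16 to 0.12. Pairs of the 9 genes at an adjusted p under 0.05 numbered 0 (2 when not centred, 0 to 1 with 1 library left out), and relations with lists 6 (11 when not centred, 0 without 2 samples, 0 to 7 with 1 library left out). With no filter the median log2 difference of all genes by sex was -0.10.

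Replicate numbers are shared between the groups, and the sources name no pairing. Of 10 pairs of the same number, 0 correlated best with their own number (r from -0.36 to 0.16). With number as a block, genes with p under 0.005 were 20 in both sexes, 35 in males, 22 in females, 43 in the interaction and 5834 for sex. By sex the block gave Sox11 an adjusted p of 0.0355, which passes, and Neurod2 one of 0.0622, which does not. In both sexes the p of Dcx was 0.107 and that of Neurod2 0.063 with the block, and in the interaction that of Igfbpl1 was 0.085.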
